A study of Mus musculus with 18 samples.

Results

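Beta cells sorted from the islets of chow-fed mice without insulin receptor in the liver (LIRKO) were compared with beta cells of chow-fed controls (Ctrl), as 4 LIRKO and 6 Ctrl libraries, which are 10 of the 18 samples in the series. The members were chosen by label alone, with the genotypes LIRKO and Ctrl and the treatment Chow, and all 53090 genes of the table were read. The sources used here do not name the Cre driver, strain, sex or age, nor do they tie libraries to single animals, so p-values here measure library-to-library spread, part of which may be technical. LIRKO mice as first described delete a floxed insulin receptor gene with Cre under the albumin promoter, so their beta cells keep the receptor. The islets were kept overnight in culture, dispersed and sorted by scatter and autofluorescence before RNA was taken. Total counts were 37138131 to 51714775 per LIRKO library and 24979993 to 43987306 per Ctrl library.

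A liver that cannot respond to insulin makes glucose without restraint, and the beta cells of such mice secrete more insulin and multiply. Insulin is made as a precursor that enters the endoplasmic reticulum (ER), folds with the help of chaperones, passes the Golgi and is stored in dense-core granules until calcium entry triggers exocytosis. Growth factors act on beta cells in part through the kinase ERK, which induces its own inhibitors. Levels are given as CPM, counts scaled to library size. The sorted cells held high levels of the insulin genes: Ins2 stood at 103312 to 132008 CPM in LIRKO and at 85296 to 145739 CPM (median 121846) in Ctrl. Ins1 stood at 42143 to 55399.8 CPM in LIRKO and at 27936 to 49694 CPM (median 42664) in Ctrl, and neither gene passed the test (adjusted p = 0.978 and 0.685). Ins1 and Ins2 are near-identical copies between which reads can be split. The insulin receptor gene Insr, whose deletion is in the liver and is not tested by these cells, was at 60.4, 58.1, 55 and 59.8 CPM in LIRKO replicates 1 to 4, against 45.4 to 61.8 CPM (median 52.4) in Ctrl (adjusted p = 0.674).

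Of 19284 genes tested with edgeR, 569 were higher in LIRKO (2.95%) and 424 lower (2.2%) at an adjusted p under 0.05, and the median log2 change over all tested genes was −0.02. Groups without overlap, with all 4 LIRKO libraries above all 6 Ctrl libraries, were found for 1245 genes (6.46%), and with all 4 below for 1005 (5.21%). Calls that held with each of the 10 libraries left out in turn numbered 267 higher (1.38%) and 111 lower (0.576%). The LIRKO libraries came as near-identical pairs, replicates 1 with 2 and 3 with 4. Summing each pair into 1 library left 144 genes higher (0.728%) and 49 lower (0.248%) of 19772 tested. Called genes are named where the call held without any single library, and exceptions are marked. Leaving out 1 LIRKO library keeps its near-identical partner in the fit, so this rule does not show that a call is free of either pair. List counts at an unadjusted p under 0.05 are given below without the share over all tested genes, so they have no base rate beside them. DESeq2 called more genes in all, 931 higher and 707 lower. Its list counts are therefore not to be read against the edgeR shares of 2.95% and 2.2%. The strand setting of the counting is not given in the sources used here. Kdelr3, Gprc5b, Ptger4, Tgfb3, Igfbp7, Abcc9 and Fam196a each overlap an expressed gene on the other strand. Without the strand setting it is not known whether the reads of both partners were kept apart for these 7 genes.

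The pairs were closer to each other than any other libraries of a group. The median absolute deviation of the log2 ratio was 0.0896 between LIRKO replicates 1 and 2 and 0.105 between 3 and 4, over 10718 genes with at least 100 counts in all 10 libraries. It was 0.172 to 0.252 between libraries of different LIRKO pairs and 0.183 to 0.521 between Ctrl libraries. A chi-square per gene on the counts, which is near 1 when only counting noise separates libraries, was 6.78 and 9.16 within the pairs and 38.8 to 198 for the 19 other pairings within a group. Repeat libraries of 1 RNA sample can also exceed counting noise, so these values do not tell whether a pair holds separate animals, which the sources used here do not state. The 4 libraries were analysed as 4, and if each pair is 1 sample the resulting p-values are too small.

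**Figure D1:**
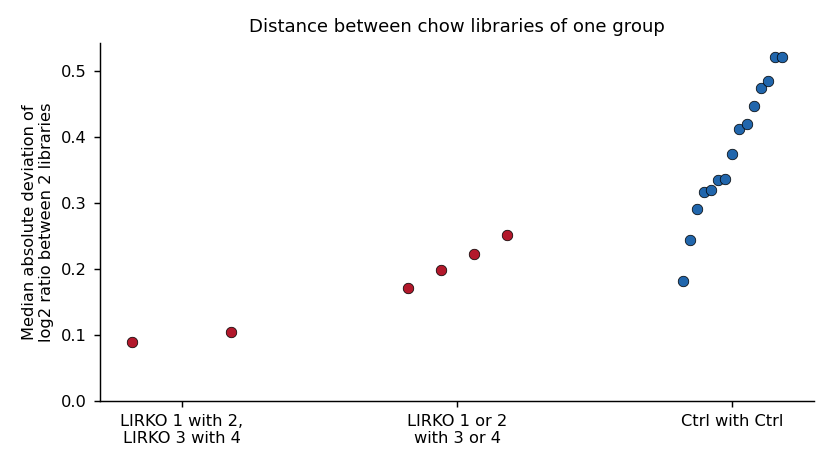
Distance between chow libraries of the same group, as the median absolute deviation of the log2 count ratio over 10718 genes (y axis), for the near-identical LIRKO pairs, for LIRKO libraries across pairs and for Ctrl libraries (x axis; each point is 1 pairing). The 2 within-pair points, at 0.0896 and 0.105, lie under all others, which start at 0.172.

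Set against the same 6 Ctrl libraries, replicates 1 and 2 gave 182 genes higher (0.944%) and 179 lower (0.928%), and replicates 3 and 4 gave 412 higher (2.14%) and 257 lower (1.33%). These counts share their Ctrl libraries. Tested directly, replicates 3 and 4 against replicates 1 and 2, 53 genes differed (0.275%), all higher in replicates 3 and 4, and 0 of the 993 genes called between genotypes were among them. In the fit to all groups 933 of 19284 genes had an unadjusted p under 0.05, a threshold that a share of 0.05 passes when no gene differs. With the chow libraries alone 0 genes passed the adjusted threshold. Over the 993 called genes the size of the difference between pairs had a median of 0.27 on the log2 scale, against 0.22 over all tested genes. The 993 genes were chosen for a genotype difference that is large against the spread of the same libraries, which in part fixes how few differ between pairs and how few overlap Ctrl. Of the 569 genes called higher, 541 (95.1%) had all 4 LIRKO libraries above all Ctrl libraries, and of the 424 called lower, 385 (90.8%) had all 4 below. In 56 of the 993 the pairs differed by more than 1 on the log2 scale.

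Of the 53 genes that separated the pairs (0.275% of 19284 tested), 6 were among the 21 endothelial markers and 4 among the 60 matrix genes tested. With the chow libraries alone 0 genes passed. S1pr1, a sphingosine phosphate receptor of endothelium, was at 0.955, 0.873, 13.3 and 10.9 CPM in LIRKO replicates 1 to 4 and at 2.03 to 11.7 CPM (median 4.18) in Ctrl, a difference between pairs of 3.72 (log2, adjusted p = 0.0356). Cxcr4, a chemokine receptor, was at 0.735, 0.798, 8.11 and 7.44 CPM in LIRKO and at 3.51 to 11.5 CPM (median 5.33) in Ctrl. Inpp5d, a lipid phosphatase of blood cells, was at 0.955, 1.20, 5.57 and 4.67 CPM in LIRKO and at 3.26 to 7.75 CPM (median 4.12) in Ctrl. For all of these, replicates 1 and 2 lay below every Ctrl library and replicates 3 and 4 within or above the Ctrl range. Summed over 21 endothelial markers, LIRKO replicates 1 and 2 held 23.7 and 28.4 CPM and replicates 3 and 4 held 242.6 and 207 CPM, against 50.3 to 267 CPM in Ctrl. Glucagon (Gcg), the hormone of alpha cells, split the same way, at 116, 104, 1477 and 1670.3 CPM in LIRKO and 255 to 1634 CPM (median 961) in Ctrl. Summed acinar markers ran the other way, at 297, 365, 81.3 and 43.6 CPM in LIRKO, against 16.3 to 776 CPM in Ctrl. In these bulk samples fewer cells of a type and less RNA per cell cannot be told apart.

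**Figure D2:**
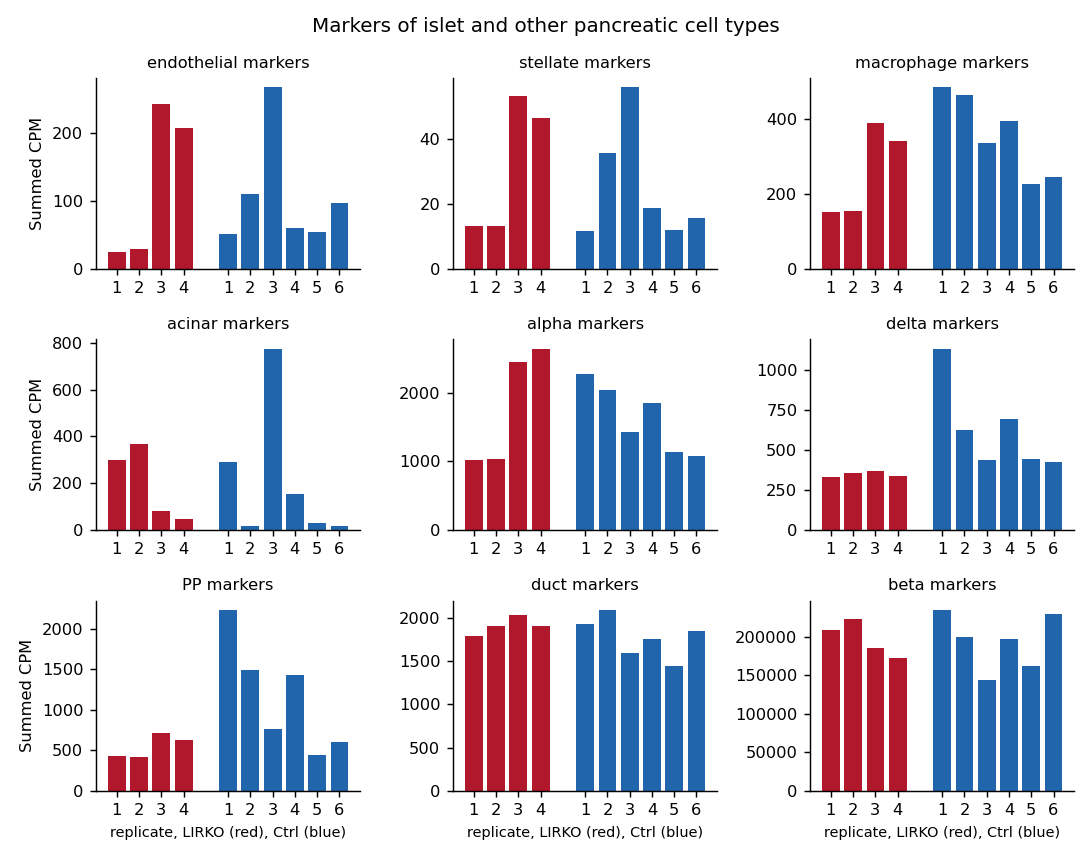
Summed CPM of marker genes of 9 cell types (y axes) in each LIRKO replicate (red, left) and each Ctrl replicate (blue, right). Endothelial, stellate, macrophage and alpha sums are lower in LIRKO replicates 1 and 2 than in 3 and 4, acinar sums are higher, and delta sums are 331.5 to 364 CPM in LIRKO, all below the 423 to 1132 CPM in Ctrl.

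Of 14 beta cell markers 0 were higher and 2 lower in LIRKO (median −0.43), and 0 were called with the pairs summed. At an unadjusted p under 0.05 6 of them were lower and 0 higher, and by DESeq2 3 and 0. In 5 of the 14 all LIRKO libraries lay below all Ctrl libraries. Of 21 endothelial and 28 acinar markers 0 were called by edgeR or DESeq2, and 0 had an unadjusted p under 0.05. Of 23 macrophage markers 1 was lower in LIRKO, and of 20 stellate markers 1 was lower. Of 17 alpha cell markers 4 were higher and 1 lower, with Gc, Ttr and Etv1 among the higher, and 7 had a log2 change above 0. The median of this list was −0.13, at −0.44 for replicates 1 and 2 and 0.56 for replicates 3 and 4 against Ctrl. Gcg itself did not pass (log2 change −0.13 ± 0.90, adjusted p = 0.96). Of 11 delta cell markers 0 were higher and 1 lower, which was Pdx1, shared with beta cells. The median of this list was −0.89, and 5 were lower at an unadjusted p under 0.05 and 2 by DESeq2. Somatostatin (Sst) was at 152, 162, 194 and 169 CPM in LIRKO and 118 to 765 CPM (median 288) in Ctrl (adjusted p = 0.179). Of 12 PP cell markers 2 were higher and 1 lower (median −0.11), and 2 and 4 by DESeq2. Pancreatic polypeptide (Ppy) was at 78.5, 63.7, 266 and 213 CPM in LIRKO and 152 to 1343 CPM (median 542) in Ctrl, and the groups overlapped (log2 change −2.01 ± 0.64, adjusted p = 0.0804). By DESeq2 it passed, at an adjusted p of 0.0105 in a range of 0.0105 to 0.454 over its alternatives.

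Several feedback genes of the ERK pathway were higher in LIRKO. Of 21 tested members 7 were called higher and 0 lower (8 and 0 by DESeq2, 11 and 0 at an unadjusted p under 0.05), 5 of the 7 in every fit with 1 library left out and 3 with the pairs summed, and the median log2 change was 0.61. Etv5, an ETS transcription factor induced by growth factor signalling (chromosome 16, 22381309 to 22439719 on GRCm38), was at 19.3, 20.8, 24.1 and 24 CPM in LIRKO replicates 1 to 4, against 4.35 to 8.01 CPM (median 6.45) in Ctrl. Every LIRKO library was more than double the highest Ctrl library, at a log2 change of 1.78 ± 0.15 (SE, adjusted p = 5.87e-06). Dusp4, a phosphatase that switches off ERK and other MAP kinases in the nucleus, was at 56.8, 58.5, 72 and 72.5 CPM in LIRKO and at 11.5 to 23.9 CPM (median 16.2) in Ctrl, 1.98 ± 0.34 on the log2 scale (adjusted p = 0.0019). Spry4, an inhibitor of growth factor signalling upstream of ERK, was at 6.07, 5.01, 8.67 and 7.71 CPM in LIRKO, against 1.96 to 3.29 CPM (median 2.56) in Ctrl (adjusted p = 0.000596). These 3 genes passed with the pairs summed too. The ETS factor gene Etv1 rose by 0.94 and Spred3, another inhibitor of the pathway, by 0.75 (log2, adjusted p = 0.00398 and 0.0031), and neither passed with the pairs summed. The list's median was 0.29 for replicates 1 and 2 against Ctrl and 0.82 for replicates 3 and 4 against Ctrl.

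**Figure D3:**
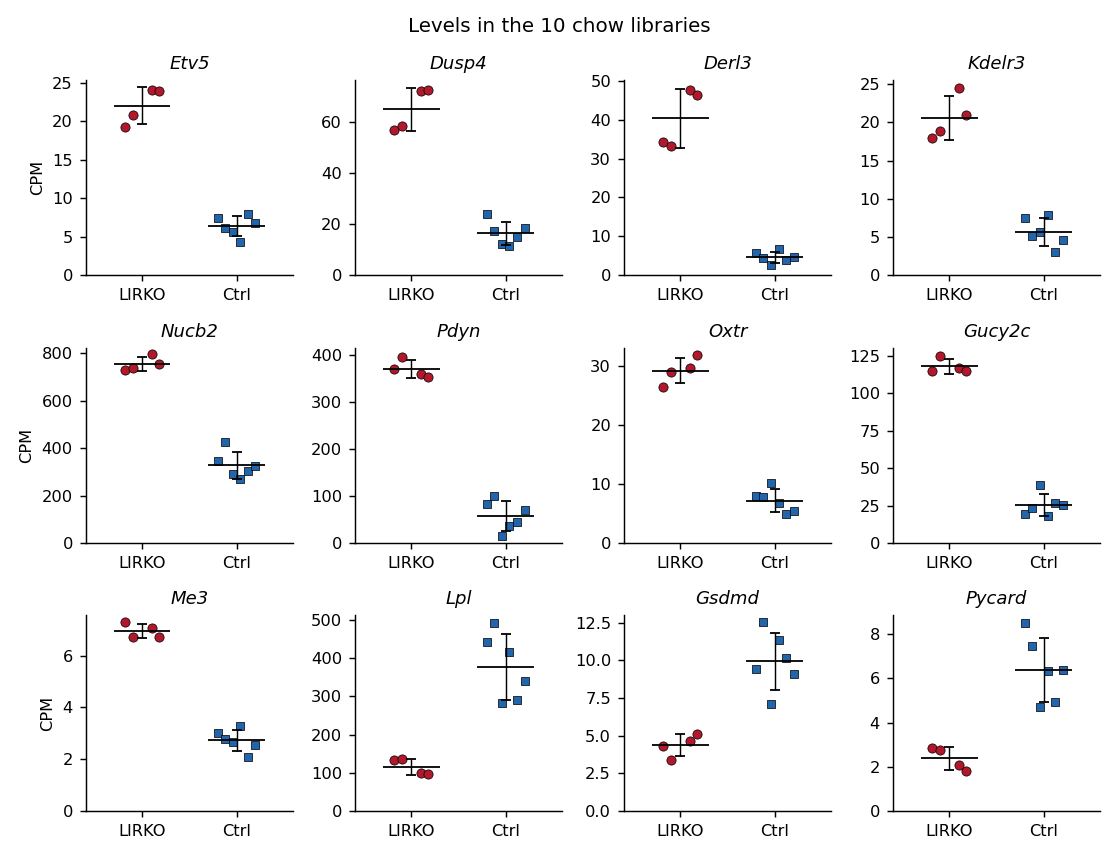
Levels of 12 genes in CPM (y axes, each from 0) in the 4 LIRKO libraries (red circles, left; replicates 1 and 2 then 3 and 4) and the 6 Ctrl libraries (blue squares, right); lines are means and bars are SDs. In each panel the groups do not overlap, with LIRKO above Ctrl in the first 9 panels and below it for Lpl, Gsdmd and Pycard.

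Along the secretory pathway, folding and ER degradation had calls above the share over all genes, all of them higher in LIRKO. The largest calls in the ER and Golgi steps were Derl3, Kdelr3 and Fkbp11. Folding genes had 6 of 33 members higher and 0 lower (median log2 change 0.24), and ER-associated degradation had 3 of 23 higher and 0 lower (0.14). Transport between ER and Golgi had 1 of 35 higher (0.11), N-glycosylation 1 of 30 (0.07) and entry into the ER 0 of 24 (0.14), all with 0 lower. Over all tested genes 2.95% were called higher and 2.2% lower, so the calls in transport, N-glycosylation and entry were near that share. At an unadjusted p under 0.05 edgeR had 14 folding, 9 degradation and 5 entry genes higher and 0 lower in these 3 lists, and DESeq2 called 9, 7 and 3 higher and 0 lower. Left-out libraries kept 3 of the 6 folding calls and 1 of the 3 degradation calls.

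Derl3, a membrane protein of the machinery that moves misfolded proteins out of the ER (chromosome 10, 75893413 to 75895941), was at 34.2, 33.2, 47.6 and 46.3 CPM in LIRKO, against 2.57 to 6.70 CPM (median 4.53) in Ctrl. The lowest LIRKO library held more than 4 times the highest Ctrl library, and the log2 change was 3.11 ± 0.39 (adjusted p = 0.000189). Kdelr3, a receptor that returns escaped ER proteins from the Golgi (chromosome 15, 79516411 to 79527739), was at 17.9, 18.9, 24.5 and 20.9 CPM in LIRKO and at 3.02 to 7.82 CPM (median 5.34) in Ctrl, 1.87 ± 0.23 on the log2 scale (adjusted p = 0.000157). Fkbp11, an ER prolyl isomerase, was at 31.4, 33.1, 38 and 35.4 CPM in LIRKO and at 8.23 to 13.9 CPM (median 11) in Ctrl (adjusted p = 0.000498). Nucb2, a calcium-binding protein of the secretory pathway and the precursor of nesfatin-1, was at 731, 737, 798 and 753 CPM in LIRKO and at 271 to 427 CPM (median 314) in Ctrl (1.20 ± 0.13, adjusted p = 4.69e-05). These 4 genes passed with the pairs summed, and for each the groups were far apart. Creld2, an ER stress-inducible disulfide isomerase-like protein, rose by 0.97 (log2, adjusted p = 0.00338) and did not pass with the pairs summed. Hsp90b1, the ER member of the Hsp90 chaperones, was at 2463, 2495, 2884 and 2826 CPM in LIRKO and at 1220.0 to 2360.4 CPM (median 1435) in Ctrl. Its log2 change of 0.76 ± 0.18 passed (adjusted p = 0.0171), but not with the pairs summed or with either pair alone, nor without LIRKO replicate 3, at an adjusted p of 0.0678 in a range of 0.000389 to 0.185 over its alternatives. Hspa5, the most abundant ER chaperone, was at 2711, 2899.7, 3135 and 3005 CPM in LIRKO, all above the 1457 to 2506 CPM (median 2111) in Ctrl, and did not pass (log2 change 0.47 ± 0.20, adjusted p = 0.217).

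**Figure D4:**
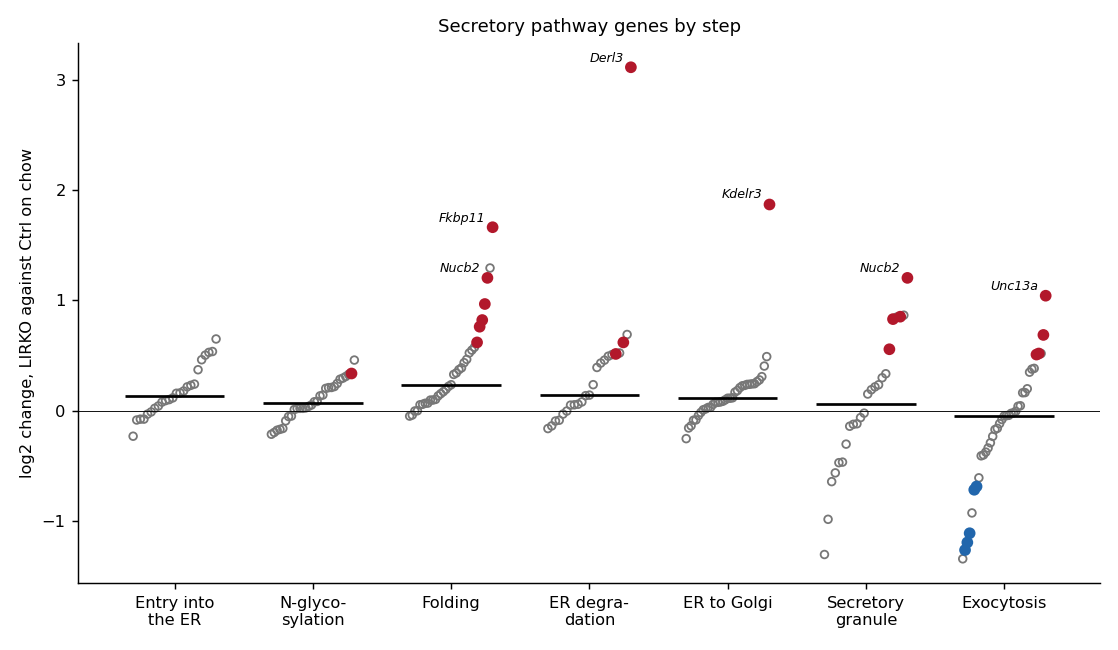
The log2 change of LIRKO against Ctrl on chow (y axis) for every tested gene of 7 steps of the secretory pathway (x axis, in order from entry to release), red where called higher, blue where called lower and open grey where not called; black bars are medians. Names mark genes called higher by more than 1 on the log2 scale. Derl3 at 3.11 and Kdelr3 at 1.87 stand far above the rest of their steps.

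Many ER chaperone genes carry the ER stress response element (ERSE), a CCAAT box and a CCACG box held 9 bases apart, which is read by ATF6 and XBP1 together with NF-Y. It was searched on both strands as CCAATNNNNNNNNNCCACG in RefSeq promoters on GRCm38.p6, from 250 bases before to 50 after each start. The element was in 39 of 32851 promoters (0.119%). Of the 10 ER genes called higher plus Hspa5, 10 had a promoter in the set and 4 of them held the element: Derl3, Creld2, Hsp90b1, with 2 matches, and Hspa5. The element TGACGTGG, which XBP1 and ATF6 can bind, was searched alike. It was in 222 promoters (0.676%) and, among these ER genes, in that of Kdelr3. A match is a description of the letters and not a measured binding site. Apart from Hspa5, which was not called, uncalled members of the ER lists were not counted. The shares over all promoters therefore do not tell whether called ER genes hold these elements more often than other ER genes. The 3 promoters with the element whose genes were called are shown 5′ to 3′ on the strand of the gene, with the CCAAT and CCACG boxes, or their complements CGTGG and ATTGG, in capitals. They are chr10:75893148-75893447 (plus strand) for Derl3, chr15:88819396-88819695 (plus strand) for Creld2 and chr10:86705395-86705694 (minus strand) for Hsp90b1.
Derl3: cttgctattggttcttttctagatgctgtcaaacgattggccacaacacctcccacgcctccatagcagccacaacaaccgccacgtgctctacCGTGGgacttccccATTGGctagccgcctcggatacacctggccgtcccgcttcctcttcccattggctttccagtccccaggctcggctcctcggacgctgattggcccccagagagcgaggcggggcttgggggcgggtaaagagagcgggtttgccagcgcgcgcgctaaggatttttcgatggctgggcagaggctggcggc
Creld2: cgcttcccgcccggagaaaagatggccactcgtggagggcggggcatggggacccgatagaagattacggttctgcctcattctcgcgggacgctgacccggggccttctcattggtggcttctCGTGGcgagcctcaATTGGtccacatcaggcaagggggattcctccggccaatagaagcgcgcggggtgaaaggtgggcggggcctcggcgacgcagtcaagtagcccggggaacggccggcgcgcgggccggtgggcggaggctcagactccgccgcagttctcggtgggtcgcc
Hsp90b1: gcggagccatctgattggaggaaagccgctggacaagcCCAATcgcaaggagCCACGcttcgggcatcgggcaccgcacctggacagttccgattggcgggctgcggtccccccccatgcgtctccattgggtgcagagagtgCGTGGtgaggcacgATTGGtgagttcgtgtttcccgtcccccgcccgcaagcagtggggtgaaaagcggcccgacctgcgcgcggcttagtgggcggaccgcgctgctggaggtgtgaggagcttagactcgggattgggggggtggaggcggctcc

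The list of ATF4 targets, genes of the integrated stress response, had 9 of 30 members higher and 0 lower (median 0.35), 3 of them in every fit with 1 library left out and 1 with the pairs summed. That gene was Stc2, a secreted glycoprotein, at 7.91, 8.01, 6.31 and 5.85 CPM in LIRKO and 1.12 to 2.11 CPM (median 1.23) in Ctrl (2.35 ± 0.31, adjusted p = 0.000266). The lowest LIRKO library was at least double the highest Ctrl library. Gpt2, the mitochondrial alanine aminotransferase, rose by 0.81, and Ppp1r15a, which reverses the block on translation by recruiting a phosphatase, by 0.86 (log2, adjusted p = 0.00414 and 0.0091). Serine and one-carbon enzymes, which ATF4 also controls in part, had 5 of 27 higher and 0 lower with a median of 0.07, and amino acid transporters 2 of 28 higher (0.20). None of the calls in these 2 lists held in every fit with 1 library left out, and for the one-carbon genes DESeq2 gave 5 higher and 1 lower. Aminoacyl-tRNA synthetases had 0 of 23 called by edgeR and 0 by DESeq2 (median 0.04), with 3 higher at an unadjusted p under 0.05.

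Secretory granule genes had 4 of 24 members higher and 0 lower by edgeR, with a median of 0.07, while 8 were higher and 6 lower at an unadjusted p under 0.05 and DESeq2 called 6 higher and 4 lower. The granins Chgb and Scg3, acidic proteins that drive granule formation, were among them. Chgb was at 3991, 4308, 4777 and 4751 CPM in LIRKO and at 2176 to 2988 CPM (median 2372) in Ctrl (0.83 ± 0.16, adjusted p = 0.00546), and Scg3 rose by 0.56 (adjusted p = 0.0103). Neither passed with the pairs summed, whereas Nucb2, on this list too, did.

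Peptide hormone precursors moved both ways, with 4 of 24 higher and 3 lower (median 0.39). Pdyn, the precursor of the dynorphin opioids, was at 369.7, 397, 361 and 353 CPM in LIRKO, against 15.4 to 101 CPM (median 57.3) in Ctrl. All LIRKO libraries were above all Ctrl libraries, at a log2 change of 2.66 ± 0.42 (adjusted p = 0.00102). Cck, the precursor of cholecystokinin, had 31, 33, 67 and 40 counts in LIRKO replicates 1 to 4, against 0, 1, 3, 1, 1 and 0 counts in the 6 Ctrl libraries, a rate 34.5 times higher (exact 95% interval 15.5 to 95.2, for counting error alone). Npy, neuropeptide Y, was at 1.05, 1.05, 1.14 and 1.32 CPM in LIRKO and at 1.67 to 6.71 CPM (median 5.26) in Ctrl, a log2 change of −2.07 ± 0.34 (adjusted p = 0.00134). These 3 calls held with the pairs summed.

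Genes of exocytosis were called both ways, 4 of 37 higher and 5 lower, with a median of −0.05. Stx1a, the plasma membrane SNARE that binds calcium channels, was at 9.48, 9.30, 10.1 and 9.74 CPM in LIRKO and at 12.2 to 20.4 CPM (median 15.1) in Ctrl (−0.68 ± 0.13, adjusted p = 0.00381). Rab3b, a small GTPase of secretory vesicles, was at 20.7, 20.9, 14.3 and 15 CPM in LIRKO and at 28.5 to 47.7 CPM (median 45.2) in Ctrl (−1.19 ± 0.23, adjusted p = 0.00546). Both were lower without overlap, and neither passed with the pairs summed. With the pairs summed none of the 37 passed.

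Potassium channel genes had 6 of 34 members higher and 4 lower (median −0.02), and calcium, sodium and TRP channel genes had 2 of 39 higher and 6 lower (−0.10). Kcnip2, a calcium sensor that binds Kv4 potassium channels, was at 7.42, 7.06, 7.99 and 8.45 CPM in LIRKO, against 0.704 to 2.59 CPM (median 1.52) in Ctrl (2.26 ± 0.30, adjusted p = 0.000266). Kcns3, a silent Kv subunit, was at 1.20, 1.42, 2.14 and 1.81 CPM in LIRKO, against 0.0616 to 0.669 CPM (median 0.179) in Ctrl, a log2 change of 2.74, and 3.42 without Ctrl replicate 3. Kcnn3, a small-conductance calcium-activated channel, rose by 1.26 and Abcc9, the SUR2 subunit of ATP-sensitive channels, by 1.89 (log2, adjusted p = 0.00922 and 0.00919). Scn3a, a voltage-gated sodium channel, was at 26.8, 27.6, 32.2 and 36.3 CPM in LIRKO and at 9.02 to 18.5 CPM (median 12.6) in Ctrl (1.24 ± 0.18, adjusted p = 0.000477). In all of these the groups did not overlap, and Kcnip2, Kcns3 and Scn3a passed with the pairs summed. Trpc4, a cation channel, rose by 0.93, Mcoln3, a lysosomal channel, had a log2 change of −1.95, and Itpr1, the ER calcium release channel, one of −1.23 (adjusted p = 0.00317, 0.00463 and 0.00754), and these 3 did not pass with the pairs summed.

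Among receptors coupled to G proteins, 3 of 37 were higher and 2 lower (median −0.24). At an unadjusted p under 0.05 4 were higher and 9 lower, and DESeq2 called 4 higher and 4 lower. All LIRKO libraries lay above all Ctrl libraries for 3 members and below them for 7. The 3 that rose were Oxtr, the oxytocin receptor, Gprc5b, an orphan receptor, and Ptger4, a prostaglandin E2 receptor. Oxtr was at 26.4, 29, 29.6 and 31.7 CPM in LIRKO and at 4.96 to 10.2 CPM (median 7.21) in Ctrl, with no overlap (2.02 ± 0.20, adjusted p = 2.05e-05). Gprc5b was at 3.70, 3.89, 7.01 and 5.96 CPM in LIRKO, against 0.586 to 2.21 CPM (median 1.28) in Ctrl. Ptger4 was at 2.55, 2.82, 3.43 and 3.21 CPM in LIRKO, against 0.475 to 1.21 CPM (median 0.780) in Ctrl. All 3 passed with the pairs summed (adjusted p over the 4 libraries 0.000826 for Gprc5b and 0.000841 for Ptger4). The incretin receptor gene Glp1r was at 171, 181, 149 and 175 CPM in LIRKO and at 72.4 to 346 CPM (median 221) in Ctrl, with overlap, and did not pass (adjusted p = 0.766).

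Cyclic nucleotide genes had 4 of 41 members higher and 0 lower (median 0.01, with 2 lower at an unadjusted p under 0.05 and 0 lower by DESeq2), and RGS proteins, which shorten G protein signals, 4 of 18 higher and 1 lower (0.18). Pde10a, a phosphodiesterase of cAMP and cGMP, was at 52.4, 55.7, 50.8 and 58.8 CPM in LIRKO and at 19.1 to 28.1 CPM (median 26) in Ctrl (1.17 ± 0.15, adjusted p = 0.000186). Rapgef5, an exchange factor for the GTPase Rap, was at 24.3, 24.6, 38.7 and 41.3 CPM in LIRKO and at 4.13 to 14 CPM (median 5.27) in Ctrl, where Ctrl replicate 3 alone held 14 CPM. Rgs16 was at 42.7, 42.7, 62 and 59.9 CPM in LIRKO and at 17.6 to 26.2 CPM (median 21.1) in Ctrl (1.28 ± 0.18, adjusted p = 0.000412). Each of these 3 was higher in all 4 LIRKO libraries than in any Ctrl library and passed with the pairs summed. Crem, a cAMP-induced transcription factor, rose by 0.91 and Rgs8 by 2.20 (adjusted p = 0.0134 and 0.00864), but not with the pairs summed. Gucy2c, the guanylate cyclase receptor for guanylin and uroguanylin, was at 115, 125, 117 and 115 CPM in LIRKO and at 18.3 to 38.6 CPM (median 24.5) in Ctrl, a log2 change of 2.21 ± 0.18 (adjusted p = 2.86e-06).

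Gluconeogenic and anaplerotic genes had 3 of 29 higher and 2 lower (median 0.11). Fbp2, the muscle form of fructose bisphosphatase, was at 38.4, 42.1, 45.9 and 44.4 CPM in LIRKO and at 1.70 to 4.54 CPM (median 4.30) in Ctrl (3.55 ± 0.42, adjusted p = 0.000151). Me3, the mitochondrial malic enzyme that uses NADP, was at 7.30, 6.73, 7.07 and 6.72 CPM in LIRKO, against 2.10 to 3.27 CPM (median 2.73) in Ctrl (1.35 ± 0.16, adjusted p = 0.000152). Both were without overlap and passed with the pairs summed. Pck1, the cytosolic enzyme that starts gluconeogenesis in liver, had 26, 17, 84 and 38 counts in LIRKO replicates 1 to 4. Ctrl replicate 2 had 1 count and the other 5 had 0, a rate ratio of 199.5 (exact 95% interval 35.3 to 7927, for counting error alone). Even in LIRKO its level was only 0.424 to 1.68 CPM.

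Lipid genes were called in both directions, with 6 of 40 fatty acid synthesis and storage genes higher and 2 lower (median 0.00). Lpl, lipoprotein lipase, which releases fatty acids from circulating triglyceride, was at 132, 136, 100.4 and 95.4 CPM in LIRKO and at 282 to 492 CPM (median 378) in Ctrl, where the lowest Ctrl library was more than double the highest LIRKO library (−1.70 ± 0.20, adjusted p = 0.000152). Dgat2, the last enzyme of triglyceride synthesis, was at 23.2, 25.6, 29.8 and 28.8 CPM in LIRKO and at 6.10 to 12.7 CPM (median 10.7) in Ctrl (1.42 ± 0.25, adjusted p = 0.00242). Arrdc4, an arrestin-like protein induced by glucose, was at 31.2, 30.7, 41.6 and 40.0 CPM in LIRKO and at 9.56 to 15 CPM (median 13.2) in Ctrl (1.47 ± 0.23, adjusted p = 0.000952). These 3 passed with the pairs summed, and Thrsp, a lipogenic regulator (1.53, adjusted p = 0.00463), did not. Fatty acid oxidation had 2 of 31 higher, of which Slc25a20, the carnitine-acylcarnitine carrier, rose by 0.51 (adjusted p = 0.00517), but not with the pairs summed. Aass, the first enzyme of lysine breakdown, was at 9.65, 10.9, 6.71 and 6.48 CPM in LIRKO and at 0.553 to 3.22 CPM (median 0.719) in Ctrl (2.91 ± 0.42, adjusted p = 0.000477), with Ctrl replicate 3 at 3.22 CPM and the other 5 at 0.553 to 0.887. Without that library its log2 change was 3.61.

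Some lists with 0 or 1 member called by edgeR had medians away from that of all genes. Glycolysis had a median of 0.50 (0 of 29 called), hypoxia 0.74 (1 of 21 higher), oxidative phosphorylation −0.44 (0 of 75), cytosolic ribosome −0.48 (0 of 76) and proteasome −0.24 (0 of 34). At an unadjusted p under 0.05, 26 oxidative phosphorylation, 5 ribosome and 8 proteasome genes were lower and 0 higher, glycolysis had 3 higher and 4 lower, and hypoxia 10 higher and 0 lower. DESeq2 called 3 oxidative phosphorylation genes lower, 5 hypoxia genes higher and 0 in the other 3 lists. For oxidative phosphorylation 2 of 75 members had a log2 change above 0, and for the ribosome 1 of 76. The summed levels of the glycolysis, oxidative phosphorylation, ribosome and proteasome lists overlapped between the groups. Hypoxia genes summed to 3437 to 3869 CPM in LIRKO, all above the 1743 to 3249 CPM of Ctrl. Of its 21 members 20 had a log2 change above 0. In 9 all LIRKO libraries lay above all Ctrl libraries, against 6.46% over all tested genes. Oxidative phosphorylation summed to 5892 to 7974 CPM in LIRKO and 6627 to 11035 CPM in Ctrl, and the ribosome to 12410 to 17227 and 12938 to 26337 CPM. Glycolysis summed to 7476 to 7911 CPM in LIRKO, within the 3628 to 9385 CPM of Ctrl. Against the shared Ctrl libraries, replicates 1 and 2 had a median of −0.27 and replicates 3 and 4 one of −0.65 in oxidative phosphorylation, and −0.31 and −0.66 for the ribosome. Cholesterol genes had a median of 0.01, with 0 of 34 called by edgeR, 5 at an unadjusted p under 0.05 and 2 by DESeq2. Of the 13 mRNAs of the mitochondrial genome 7 were tested. These 7 had a median of −0.27, with 0 called by either tool and 0 at an unadjusted p under 0.05.

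**Figure D5:**
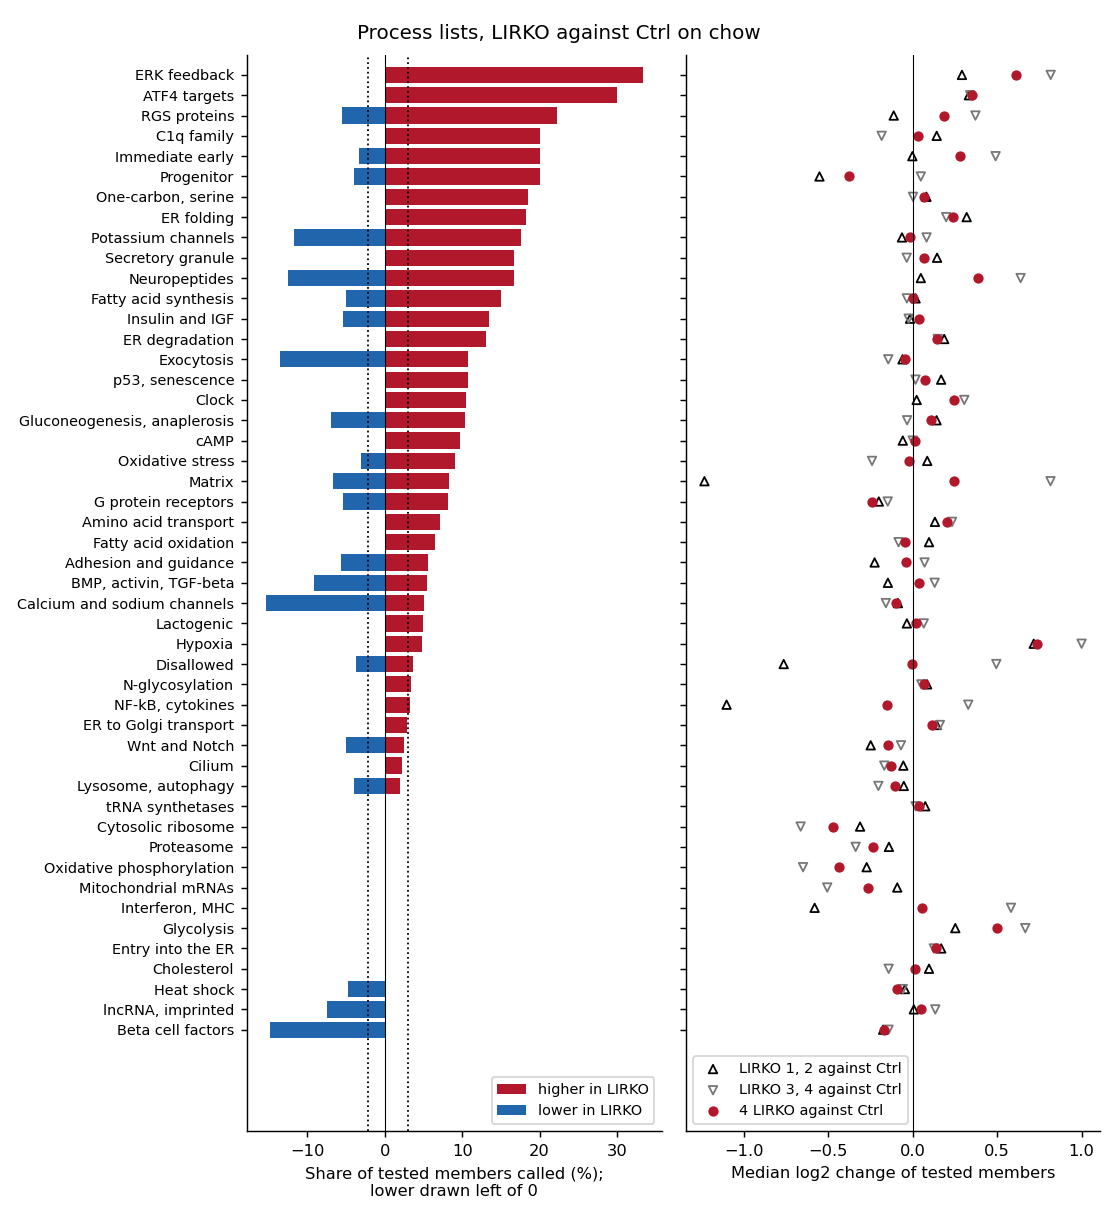
Left, the share of tested members of 48 process lists called higher (red) or lower (blue, drawn left of 0) in LIRKO, in percent (x axis), with dotted lines at the shares over all tested genes, 2.95% higher and 2.2% lower. Right, the median log2 change of each list for all 4 LIRKO libraries (red) and for each near-identical pair (triangles) against the same Ctrl libraries; the ERK feedback list leads on the left, and the matrix list has the widest gap between pairs.

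In some lists the pairs had medians of opposite sign. The summed macrophage markers were 152.1, 154, 390 and 341 CPM in LIRKO, against 227 to 485 CPM in Ctrl. Matrix genes had a median of −1.24 for replicates 1 and 2 against Ctrl and 0.82 for replicates 3 and 4, interferon and antigen presentation genes −0.58 and 0.58, and NF-kB and cytokine genes −1.10 and 0.33. The summed endothelial markers of 23.7 and 28.4 CPM in replicates 1 and 2 and 242.6 and 207 CPM in replicates 3 and 4 (Ctrl 50.3 to 267) stand beside these, and their part in the medians was not tested. Of 60 matrix genes 5 were higher and 4 lower. Col16a1, a fibril-associated collagen, was at 30.2, 31.5, 22.1 and 26.2 CPM in LIRKO and at 10.9 to 15.2 CPM (median 13.3) in Ctrl (1.06 ± 0.19, adjusted p = 0.00275). Plod2, a lysyl hydroxylase of collagen, rose by 2.19 and the laminin gene Lama5 by 2.10, neither of them with the pairs summed (adjusted p over the 4 libraries 0.00761 and 0.0103). Without Ctrl replicate 3 the log2 change of Lama5 was 2.96. Emid1, an EMI domain protein, was at 7.30, 7.48, 4.47 and 3.92 CPM in LIRKO and at 14.4 to 27.5 CPM (median 21.5) in Ctrl (−1.87 ± 0.29, adjusted p = 0.000841). Col6a3, a collagen VI chain, was at 3.45, 3.84, 2.24 and 1.78 CPM in LIRKO and at 6.33 to 15.3 CPM (median 8.89) in Ctrl (−1.79 ± 0.31, adjusted p = 0.00197). Col16a1, Emid1 and Col6a3 passed with the pairs summed.

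Activin and BMP genes, which code for secreted factors of the TGF-beta family, their receptors and targets, had 3 of 55 members higher and 5 lower (median 0.03). Inhba, the subunit of activin A, was at 9.01, 10.1, 9.70 and 10.4 CPM in LIRKO and at 0.760 to 3.14 CPM (median 1.76) in Ctrl (2.28 ± 0.30, adjusted p = 0.000266). Tgfb3, a ligand, rose by 1.97 (adjusted p = 0.00595). Of the genes that fell, Ltbp2 binds fibrillin and resembles the latent TGF-beta binding proteins, and was at 2.40, 2.10, 1.96 and 1.62 CPM in LIRKO and at 3.05 to 10.1 CPM (median 9.37) in Ctrl (−2.06 ± 0.30, adjusted p = 0.000472). Id3, a target of BMP signalling, was at 1.42, 1.20, 3.17 and 2.44 CPM in LIRKO and at 4.10 to 12.3 CPM (median 7.20) in Ctrl (−1.88 ± 0.31, adjusted p = 0.00147). The BMP receptor gene Bmpr1b and the BMP-regulated Smad gene Smad9 fell, with log2 changes of −2.15 and −2.61 (adjusted p = 0.0125 and 0.00344). Inhba, Ltbp2 and Id3 passed with the pairs summed, and Tgfb3, Bmpr1b and Smad9 did not.

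Adhesion and guidance genes had 4 of 71 higher and 4 lower (median −0.04). Cdh7, a cadherin, was at 4.78, 4.29, 3.73 and 4.06 CPM in LIRKO and at 8.22 to 17.6 CPM (median 13.4) in Ctrl (−1.65 ± 0.23, adjusted p = 0.000433). Unc5d, a netrin receptor, was at 0.147, 0.125, 0.140 and 0.110 CPM in LIRKO and at 0.557 to 1.29 CPM (median 0.998) in Ctrl, low levels in both. Both were lower in all 4 LIRKO libraries and with the pairs summed. Slit2, a guidance ligand, rose by 1.46 (adjusted p = 0.00906), but not with the pairs summed.

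Genes of insulin and IGF signalling had 5 of 37 members higher and 2 lower (median 0.04). Irs2, the adaptor through which the insulin and IGF1 receptors signal in beta cells, was at 61.2, 62.4, 66.5 and 71 CPM in LIRKO and at 17.7 to 37.9 CPM (median 28.7) in Ctrl, without overlap (1.23 ± 0.25, adjusted p = 0.00807), a call that was lost with the pairs summed. Pappa2, a protease that frees IGFs from their binding proteins, was at 316, 320.4, 339 and 374 CPM in LIRKO and at 30.1 to 102 CPM (median 65.3) in Ctrl (2.34 ± 0.35, adjusted p = 0.000596). Stc2, given above, is an inhibitor of such proteases. Igf2 was at 3.23, 4.04, 2.30 and 2.20 CPM in LIRKO and at 6.57 to 11.2 CPM (median 8.94) in Ctrl (−1.62 ± 0.22, adjusted p = 0.000371), and Igfbp7, an IGF-binding protein family member, had a log2 change of −0.75 (adjusted p = 0.00246). Pappa2, Stc2 and Igf2 passed with the pairs summed. The IGF1 receptor gene Igf1r was at 704, 688, 519.9 and 522 CPM in LIRKO and at 331 to 726 CPM (median 548) in Ctrl, and did not pass (adjusted p = 0.729).

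Transcription factors of mature beta cells had 0 of 27 members higher and 4 lower (median −0.17). Pdx1, which maintains insulin transcription, was at 81.9, 87.5, 63.1 and 62.3 CPM in LIRKO and at 98 to 176 CPM (median 137) in Ctrl (−0.90 ± 0.17, adjusted p = 0.00452). All 4 LIRKO libraries were below all Ctrl libraries, and the call was lost with the pairs summed. Mafa, a factor of maturity, was at 37.6, 45.9, 16.4 and 14.9 CPM in LIRKO and at 32.9 to 108 CPM (median 54.3) in Ctrl, with overlap (adjusted p = 0.167). Slc2a2, the glucose transporter GLUT2, was at 144, 151, 75.2 and 77 CPM in LIRKO and at 112 to 348 CPM (median 203) in Ctrl (adjusted p = 0.137). For both of these genes replicates 3 and 4 lay under every Ctrl library, and replicates 1 and 2 lay in the Ctrl range. Progenitor and dedifferentiation genes had 5 of 25 higher and 1 lower (−0.38). Beyond those already named, Serpina7, thyroxine-binding globulin, was at 145, 154, 259.9 and 252 CPM in LIRKO and at 8.39 to 80.3 CPM (median 21.4) in Ctrl, where Ctrl replicate 2 held 80.3 CPM and the other 5 at most 31 (2.80 ± 0.63, adjusted p = 0.0139). Without Ctrl replicate 2 its log2 change was 3.42, and its call was lost with the pairs summed.

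Immediate early genes had 6 of 30 higher and 1 lower (median 0.28). Sik1, a kinase induced by cAMP, was at 28.8, 25.4, 30.3 and 30.1 CPM in LIRKO and at 10.9 to 14 CPM (median 11) in Ctrl (1.32 ± 0.22, adjusted p = 0.00135), and passed with the pairs summed. Fosl2, a subunit of AP-1, was at 45.1, 48.3, 61.7 and 61.3 CPM in LIRKO and at 12.5 to 21.8 CPM (median 13.1) in Ctrl (1.90 ± 0.36, adjusted p = 0.00393), and did not. Oxidative stress genes had 3 of 33 higher and 1 lower (−0.02). Gpx3, a secreted glutathione peroxidase, was at 257, 269, 389 and 369 CPM in LIRKO and at 40.7 to 99.8 CPM (median 77.5) in Ctrl (2.12 ± 0.37, adjusted p = 0.00245). Hmox1, heme oxygenase, was at 468, 503, 583 and 569.6 CPM in LIRKO and at 92.2 to 184 CPM (median 152) in Ctrl, with no overlap, but its call (adjusted p = 0.0236) was lost with the pairs summed or either pair alone, and without LIRKO replicate 3 or 4 or Ctrl replicate 2, at adjusted p-values of 0.0728, 0.0609 and 0.0501 in a range of 5.54e-05 to 0.19 over its alternatives. Mt1, a metallothionein, had a log2 change of −1.08 (adjusted p = 0.00332). Wipi1, an autophagy protein, rose by 0.87 and the complement gene C3 by 1.84 (adjusted p = 0.0141 and 0.0115). Mt1, Wipi1 and C3 did not pass with the pairs summed.

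The C1q family had 2 of 10 members higher (median 0.03). C1qtnf1, a secreted relative of the complement protein C1q, was at 27.8, 30.2, 31.6 and 30.5 CPM in LIRKO and at 0.279 to 3.79 CPM (median 0.922) in Ctrl (4.51 ± 0.45, adjusted p = 2.27e-05), and the log2 change was 5.22 without Ctrl replicate 3. C1ql3, another member of that family with a role at synapses, was at 0.490, 0.399, 0.439 and 0.522 CPM in LIRKO and at 0.0616 to 0.210 CPM (median 0.108) in Ctrl (adjusted p = 0.00244). Gc, the vitamin D binding protein (chromosome 5, 89417522 to 89457898), was at 252, 264, 264 and 252 CPM in LIRKO and at 48.8 to 77.9 CPM (median 73.2) in Ctrl. The LIRKO libraries were close together, each over 3 times the highest Ctrl library, and gave the smallest adjusted p of the genes named here (1.90 ± 0.13, adjusted p = 2.45e-07). Ttr, the transthyretin carrier of thyroxine and retinol, rose by 0.85 (adjusted p = 0.00488), but not with the pairs summed. Tent5a, a poly(A) polymerase that stabilises mRNAs of secreted proteins, was at 233, 223, 336 and 343 CPM in LIRKO and at 43.6 to 134 CPM (median 67.7) in Ctrl (1.93 ± 0.34, adjusted p = 0.00252). Mapk4, an atypical MAP kinase, was at 19.1, 19.3, 27.5 and 24.8 CPM in LIRKO and at 2.03 to 6.42 CPM (median 3.51) in Ctrl (adjusted p = 0.00201). Gabra4, a GABA-A receptor subunit, rose by 2.08, and Iqsec3, an exchange factor of inhibitory synapses, by 2.25 (adjusted p = 0.00317 and 0.00251). Fam196a, a protein of inhibitory synapses, was at 2.77, 2.79, 1.22 and 2.11 CPM in LIRKO and at 8.47 to 17.5 CPM (median 12.5) in Ctrl (−2.54 ± 0.33, adjusted p = 0.000266).

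Among the falls, Pycard, the adaptor ASC that joins sensors to caspase-1, was at 2.84, 2.77, 2.08 and 1.81 CPM in LIRKO and at 4.69 to 8.52 CPM (median 6.35) in Ctrl (−1.43 ± 0.20, adjusted p = 0.000451). Gsdmd, whose cleaved product forms membrane pores, was at 4.29, 3.37, 4.65 and 5.11 CPM in LIRKO and at 7.08 to 12.5 CPM (median 9.81) in Ctrl (−1.19 ± 0.17, adjusted p = 0.000486). In both the groups did not overlap. Cx3cl1, the chemokine fractalkine, was at 2.96, 3.32, 3.41 and 3.57 CPM in LIRKO and at 7.06 to 13.9 CPM (median 10.9) in Ctrl (−1.72 ± 0.21, adjusted p = 0.000157). Gas6, a ligand of the TAM receptors, was at 4.75, 5.46, 3.85 and 3.73 CPM in LIRKO and at 11.1 to 16.9 CPM (median 14.8) in Ctrl (−1.70 ± 0.24, adjusted p = 0.000451). Uchl1, a ubiquitin hydrolase of neurons and endocrine cells, and Nmnat2, an enzyme of NAD synthesis that protects axons, had log2 changes of −1.22 and −1.38 (adjusted p = 0.000157 and 0.000486). Pcdh15, a protocadherin of hair cells, had one of −1.56, and Mxra7, Tmem151b and Wscd1 ones of −1.77, −1.63 and −1.19 (adjusted p = 0.000272, 0.00147, 0.000272 and 0.000412). The proliferation marker Mki67 and Aldh1a3, a retinaldehyde dehydrogenase, were among the 20 largest rises called in both ways of counting the pairs, at 2.03 and 4.14. Without Ctrl replicate 3 the log2 change of Aldh1a3 was 5.71, and DESeq2 gave that gene no adjusted p.

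On high-fat diet the same genotypes were compared in other libraries, 3 LIRKO and 5 Ctrl, and 98 genes were called (0.508%), 61 higher and 37 lower. Of these 98, 63 (64.3%) were also called on chow, which is 6.34% of the 993, and all 63 went the same way on both diets. Gc rose by 0.81 on high-fat diet (adjusted p = 0.0123), Gucy2c by 1.10 (0.0146), Nucb2 by 0.71 (0.0294), Rgs16 by 1.32 (0.00529) and C1qtnf1 by 2.79 (0.0101). Lpl had a log2 change of −1.91 (0.00382), Igf2 one of −1.34 (0.0185) and Fam196a one of −2.51 (0.00683). Derl3 (0.92), Dusp4 (0.63), Pdyn (0.76) and Pappa2 (0.39) did not pass there (adjusted p = 0.633, 0.739, 0.739 and 0.867). The difference between the diets was tested as an interaction over 19284 genes. At an unadjusted p under 0.05 there were 1065 genes, and a share of 0.05 passes that threshold when no gene differs. After adjustment 1 gene passed (0.00519%). That gene was Etv5, at 4.01, 4.6 and 4.44 CPM in LIRKO libraries on high-fat diet, against 3.82 to 5.33 CPM in Ctrl libraries on high-fat diet, with an interaction of −1.93 ± 0.24 (SE, log2, adjusted p = 0.0051). With the pairs summed 0 genes passed the interaction, and with DESeq2 47 did.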

How the data were processed

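RNA-seq of sorted beta cells was read from 1 table of whole-number counts per gene that the authors deposited. Per the submitters' processing notes, STAR, featureCounts and the build GRCm38 were named. Versions and annotation are not stated in the sources used here, nor is the counting by strand. Of 53090 gene IDs, 52489 were named from GENCODE M21 and 601 were not matched. The counts were fitted with edgeR 4.0.16 (R 4.3.3, filterByExpr, TMM scaling, glmQLFit and glmQLFTest) on all 18 libraries with 1 coefficient per group, since groups then share 1 estimate of the spread, and LIRKO on chow was tested against Ctrl on chow with Benjamini-Hochberg adjustment over all tested genes. The common dispersion had a square root of 0.314. A call is an adjusted p under 0.05. SE is the log2 change divided by the square root of F. CPM are on TMM-scaled library sizes. DESeq2 1.42.0, other filters and scaling, left-out libraries, and summed or separate LIRKO pairs were the alternatives.

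Genes to name were the 20 largest rises and falls called in both ways of counting the pairs at a mean log2 CPM of at least 2, up to 6 called members with the smallest p of each process list, the 3 highest markers of each cell type list, and fixed genes. The text gives those of them whose call held with each of the 10 chow libraries left out in turn, plus Hsp90b1 and Hmox1, chosen after their values were seen, and genes that separated the LIRKO pairs, and 2 called genes are not reported here. The comparison, gene lists and rule were chosen with earlier results of these data known, so their directions are not independent support. A list is described by its counts and median alone. Intervals on counts cover counting error only.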

Additional observations from a re-analysis of the deposited data

Results flagged for a closer look

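Of 218 groups of libraries screened over the genes named, 23 held a library far from the others of its group. The rule flags about 1 in 20 groups by chance when values are independent and normally distributed. CPM of selected genes and the near-identical LIRKO pairs need not meet this, so the 23 cannot be judged against that rate. Ctrl replicate 3 stood above the other 5 Ctrl libraries for 9 genes. It held 3.79 CPM of C1qtnf1 (others 0.279 to 1.06), 3.22 of Aass (0.553 to 0.887), 3.84 of Iqsec3 (0.616 to 1.44), 14 of Rapgef5 (4.13 to 7.51) and 21.1 of Aldh1a3 (1.14 to 2.19). It also held 0.669 CPM of Kcns3 (0.0616 to 0.264), 4.82 of Smad9 (1.47 to 1.92), 9.14 of Lama5 (1 to 2.03) and, of the genes that separated the LIRKO pairs, 7.75 of Inpp5d (3.26 to 4.9). For 7 of these genes, C1qtnf1, Aass, Iqsec3, Rapgef5, Aldh1a3, Kcns3 and Lama5, LIRKO was above Ctrl and this library lay nearest to LIRKO.

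Ctrl replicate 1 was high for Pcdh15 (16.7 CPM, others 8.47 to 11.3), Crem (56.5, others 21.9 to 32.5), Tgfb3 (1.74, others 0.253 to 0.674), Plod2 (6.95, others 2.12 to 3.19), Wipi1 (103, others 41.3 to 61.9), Fosl2 (21.8, others 12.5 to 14) and Hsp90b1 (2360.4, others 1220.0 to 1640.2), and low for Ltbp2 (3.05, others 8.68 to 10.1). Ctrl replicate 2 was high for Stc2 (2.11 CPM, others 1.12 to 1.39), Serpina7 (80.3, others 8.39 to 31) and Pck1 (0.0293, from 1 count, the others at 0). Ctrl replicate 4 was low for Bmpr1b (1.76 CPM, others 4.04 to 4.75) and Ctrl replicate 5 high for Sik1 (14, others 10.9 to 11.1). LIRKO replicate 4 was low for Tgfb3 (2.61 CPM, the others at 2.94).

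Etv5 was the gene whose genotype difference changed with diet in the fit to all libraries, by −1.93 on the log2 scale (high-fat diet minus chow, adjusted p = 0.0051).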

How the results depend on the processing

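The 993 genes called (569 higher, 424 lower) became 1638 with DESeq2 (931 and 707), 1653 with the chow libraries alone (929 and 724) and 1765 without Ctrl replicates 1 and 2 on high-fat diet (1064 and 701). They became 193 with the LIRKO pairs summed (144 and 49), all among the 993, 216 with chow libraries alone and pairs summed (165 and 51), 256 with LIRKO replicates 1 and 2 alone (146 and 110) and 477 with replicates 3 and 4 alone (307 and 170). Without a filter 221 were lower. With each library left out in turn the calls ran from 431 to 919, 290 to 533 higher and 122 to 401 lower, and leaving out LIRKO replicate 3 gave 290 higher and 141 lower, replicate 4 gave 322 and 122, replicate 1 gave 404 and 231 and replicate 2 gave 431 and 270. The interaction with diet had 1 gene, 47 with DESeq2, 8 without the same Ctrl replicates 1 and 2 and 0 with pairs summed. The difference between LIRKO pairs had 53, 27 without those replicates and 0 with chow libraries alone. Of 95 called genes named, 60 passed with pairs summed, 94 with DESeq2, which gave the last, Aldh1a3, no adjusted p, 54 with LIRKO replicates 1 and 2 alone, 83 with 3 and 4 alone and 45 under all 20 alternatives. Among these 95 none turned its direction. Genes that did not pass did turn: Ins2 was at 0.016 (chow alone, pairs summed), 0.0047 (chow alone), 0.018 (without the 2 Ctrl libraries), 0.014 (no filter), 0.13 (replicates 1 and 2) and −0.10 to 0.066 over left-out libraries. Gcg was at 0.77 and Igf1r at −0.081 with replicates 3 and 4 alone, and Gcg at −0.67 to 0.24 over left-out libraries. The cause of these changes was not tested. With 10 libraries, genes of a few counts per library, such as Pck1, are limited by depth. No paired analysis was possible because the labels give no replicate numbers shared between groups.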
